A study of Homo sapiens with 6 samples.

Results

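MYC and the proteins that share its dimer partners form a network of transcription factors, and 10 of its genes, chosen by name, were described here in the open chromatin of EndoC-βH3 cells. They were MYC, MYCN, MYCL, MAX, MXD3, MXD4, MXI1, MNT, MLX and MLXIPL. EndoC-βH3 is a human pancreatic beta cell line made from fetal pancreas, in which an added SV40 large T antigen and an added telomerase gene (hTERT) can be cut out by a tamoxifen-dependent Cre recombinase. ATAC-seq, which cuts accessible DNA with the Tn5 transposase, was run on 100000 cells per library in 3 non-senescent and 3 senescent libraries. The senescent cells had received 4-hydroxy-tamoxifen for 3 weeks, at 1 mM by the labels and 1 μM by the study's methods, to remove both transgenes. The genotype of all 6 was labelled WT, and both groups came from a single line, so the libraries within a group are not separate donors.

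The table analysed here lists 108542 accessible regions on hg38. For each it gives the mean over all 6 libraries of the read count after scaling for library depth, here the mean signal. A region was assigned to a network gene as a promoter region where it overlapped the 2 kb on either side of an annotated start site of a protein-coding transcript. It was assigned as a distal region where the nearest such start site within 100 kb belonged to that gene. This gave 54 of the 108542 regions, with 17 of the 20094 promoter regions and 37 of the 88448 distal regions. No promoter region of the 10 genes was shared with another coding gene. Because senescent and non-senescent libraries are averaged in every value, the signal describes the line as a whole and cannot show which regions opened or closed with senescence. It carries no spread between libraries, and ratios between genes are therefore given without an error or a test. The table does not hold the depth of each library.

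Levels were compared between genes as mean signal per kb of region. Percentiles were taken among all regions of the same class or, for a gene's strongest promoter region, among the 15493 genes that had one. Wherever signal was not divided by width, the strongest promoter region was chosen by that undivided signal. In MYC, MXD3, MXI1 and MNT this was another region than the strongest per kb. The beta cell label was checked against 14 beta cell markers, which all had a promoter region, at a median of 1346 per kb. That of INS, the insulin gene, reached 2715 per kb, and that of PDX1, a beta cell transcription factor, 2057. Of the 14, 9 were above the median gene, and those below it were ABCC8 (589), SLC30A8 (541), KCNJ11 (505), IAPP (435) and G6PC2 (286 per kb). Of 10 markers of other cell types, 4 had a promoter region, with a median of 99.4 per kb. Those at 0 regions were PRSS1, ALB, PTPRC, CD3E, CDH5 and TTN, and the exception was CPA1, an acinar enzyme gene, at 1298 per kb.

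MYC, MYCN and MYCL are activators that bind the DNA word CACGTG, the E-box, as dimers with MAX. MXD proteins, MXI1 and MNT compete for MAX, occupy similar sites and recruit SIN3 and histone deacetylase corepressors, so the balance between both arms sets growth and cell cycle genes. MLX pairs with a subset of the repressors and with MLXIPL, also known as ChREBP, the glucose-responsive factor that drives glycolytic and lipogenic genes in liver and beta cells.

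The E-boxes and E2F words found in the central part of the regions of the network genes are shown first. The network proteins bind the E-box, and E2F factors bind the words TTTCCCGC and TTTGGCGC at genes of the cell cycle. Further words lay outside the central part of regions, and they are counted below but not printed. Each line reads 5′ to 3′ on the strand of its gene, on hg38, with the E-box or E2F word in capitals. A match is a description of the letters and does not show that a factor was bound.
MAX promoter, chr14:65102801-65102926, minus strand: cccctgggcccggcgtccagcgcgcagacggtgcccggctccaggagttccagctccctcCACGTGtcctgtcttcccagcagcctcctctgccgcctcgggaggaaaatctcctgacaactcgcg
MXD3 promoter, chr5:177312216-177312341, minus strand: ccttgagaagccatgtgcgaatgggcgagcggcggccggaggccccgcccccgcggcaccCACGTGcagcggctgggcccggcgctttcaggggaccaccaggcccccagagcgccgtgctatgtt
MNT promoter, chr17:2399669-2399794, minus strand: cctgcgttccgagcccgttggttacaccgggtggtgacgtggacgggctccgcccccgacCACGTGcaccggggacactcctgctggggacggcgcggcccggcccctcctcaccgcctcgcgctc
MYCN distal, chr2:15889988-15890113, plus strand: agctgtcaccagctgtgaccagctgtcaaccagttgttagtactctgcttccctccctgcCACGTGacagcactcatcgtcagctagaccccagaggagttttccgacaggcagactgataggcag
MYCN distal, chr2:15993308-15993433, plus strand: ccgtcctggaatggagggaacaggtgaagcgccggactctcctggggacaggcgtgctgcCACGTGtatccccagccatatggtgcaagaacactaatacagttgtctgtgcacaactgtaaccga
MYCN promoter with E2F word, chr2:15940363-15940392, plus strand: agcaagtggctTTTGGCGCgaaagccttgg
MXD3 promoter with E2F word, chr5:177312381-177312508, minus strand: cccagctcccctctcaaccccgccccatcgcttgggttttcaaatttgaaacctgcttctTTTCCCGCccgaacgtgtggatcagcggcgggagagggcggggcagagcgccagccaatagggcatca

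The E-box of MAX lay 169 bp upstream of its nearest start site, that of MXD3 381 bp upstream, and that of MNT 1328 bp downstream in an intron. Around the 2 distal E-boxes of MYCN, the distances were 50.5 kb upstream and 52.8 kb downstream. The E2F word of MYCN was 172 bp upstream of its nearest start site. In MXD3 the E2F word was 312 bp downstream of the outermost start site, in an intron.

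The strongest promoter region of the network, that of MXD4, and the strongest distal regions of MNT, MLXIPL and MYCN carried no such word in the central 300 bases that were searched. The RefSeq promoter of MXD4, described below, did hold an E-box, outside those 300 bases. The middle of the 4 regions is shown for comparison with the sequences above. They are all in lower case because no word is marked.
MXD4 promoter, chr4:2262465-2262584, minus strand: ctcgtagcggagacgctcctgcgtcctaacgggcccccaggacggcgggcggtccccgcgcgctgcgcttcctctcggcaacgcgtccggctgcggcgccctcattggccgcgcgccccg
MNT distal, chr17:2396897-2397016, minus strand: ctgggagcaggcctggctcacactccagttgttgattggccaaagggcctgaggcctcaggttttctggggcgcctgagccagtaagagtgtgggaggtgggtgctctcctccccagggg
MLXIPL distal, chr7:73618786-73618905, minus strand: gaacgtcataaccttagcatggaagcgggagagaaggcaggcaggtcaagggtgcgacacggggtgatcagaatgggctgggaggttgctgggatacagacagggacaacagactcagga
MYCN distal, chr2:15944548-15944667, plus strand: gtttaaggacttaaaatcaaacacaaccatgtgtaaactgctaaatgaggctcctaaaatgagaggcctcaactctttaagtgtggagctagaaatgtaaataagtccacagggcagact

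Promoter accessibility differed between the 10 genes. The 17 promoter regions ran from 75.2 to 3514 per kb, with a median of 562 and quartiles of 398 and 932. Over all promoter regions the median was 507 and the quartiles were 231 and 914, so the middle of the network was no wider. Of the 17, 11 were above the median of all promoter regions. By the strongest promoter region of each gene, the order was MXD4, MNT, MYCN, MAX, MLXIPL, MXD3, MXI1, MLX, MYCL and MYC. The repressor genes MXD4 and MNT were at the top and MYC itself was at the bottom, and 6 of the 10 were above the median gene. With no spread between libraries, it cannot be said which neighbours in this order differ.

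**Figure D1:**
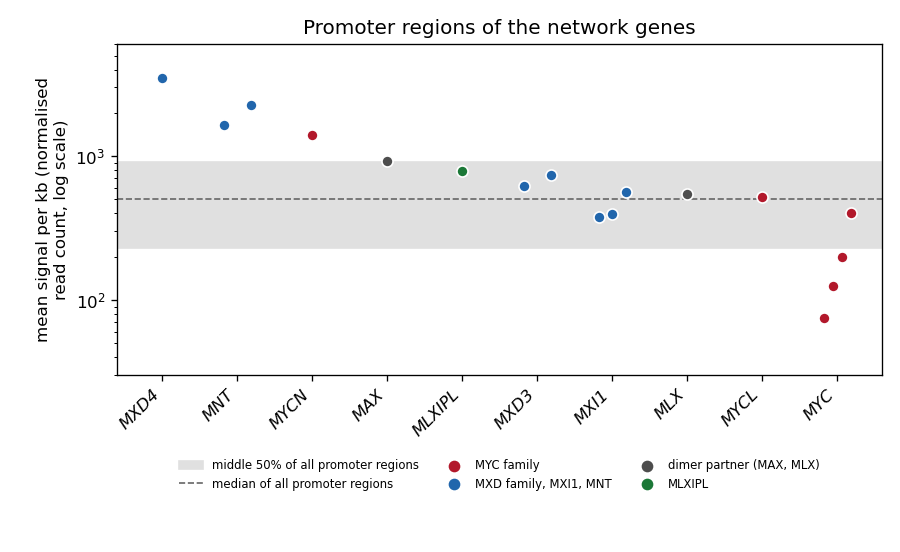
Mean signal per kb (log scale) of each of the 17 promoter regions, by gene, coloured by role, with the median (dashed) and the middle 50% (grey) of all promoter regions. MXD4 at 3514 per kb, MNT at 2254 and 1642, MYCN at 1399 and, at its edge, MAX at 932 lie above the grey band, and 3 of the 4 MYC regions lie below it.

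MYC, the founding activator of the network and an early response gene of proliferation, had 4 promoter regions, a number that only 2.39% of coding genes reached. All 4 were below the median of all promoter regions. The highest, chr8:127734024-127734367, was 343 bp wide and reached 405 per kb. It lay 1.24 kb upstream of the nearest coding start site, in an intron of the noncoding gene CASC11. CASC11 also starts nearby, so the promoters of MYC and CASC11 cannot be told apart there. The region that covered the first start sites of the gene, chr8:127735222-127736512, was the broadest at 1290 bp. It had 199 per kb, the 21.6th percentile of all promoter regions. Within the gene, a region over an untranslated exon had 75.2 per kb, at the 4.26th percentile, and one over a coding exon had 126 per kb. They lay 213 and 737 bp downstream of other annotated coding start sites inside the gene. CASC11 also has a start near the region over the coding exon, so both genes cannot be told apart there either. The strongest of the 4, at the 41.9th percentile of all promoter regions, placed MYC at the 28.0th percentile of genes. That place came from the narrow upstream region, and with start sites widened by 1 kb instead of 2 kb MYC stood at percentile 12.3.

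MYCN, the family member known from neural and neuroendocrine tissue, had 1 promoter region of 1549 bp at chr2:15939586-15941135. Its mean signal was 2167, or 1399 per kb, at the 83.8th percentile of genes. The midpoint was 189 bp upstream of the nearest start site and inside an intron of MYCNOS, the antisense gene. ATAC-seq does not read strand, so the promoters of MYCN and MYCNOS cannot be told apart there. MYCL, the third paralog, had 1 region of 1588 bp over its start site and first coding exon, with 519 per kb, at the 36.7th percentile. Per kb, the strongest promoter region of MYCN was 3.46 times that of MYC and 2.70 times that of MYCL. Without division by width, the ratio to MYC was 8.45 and that to MYCL 2.63. The MYC region in that ratio was the one over its first start sites, with a mean signal of 257, and not the narrow upstream one.

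MAX, the obligate partner of the MYC proteins, and MLX, the partner of MLXIPL, each had a single promoter region. That of MAX, chr14:65101982-65103595, had a mean signal of 1503 over 1613 bp, or 932 per kb, and stood at the 65.4th percentile of genes. It held the E-box printed above. MLX, at chr17:42566589-42567916, had 722 over 1327 bp, or 544 per kb, at the 38.6th percentile. The region covered the start site and reached the first coding exon. MAX was thus 1.71 times MLX per kb and 2.08 times by undivided signal.

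Among the repressors, MXD4 had the most accessible promoter of the network. The MXD proteins are known from cells that leave the cycle and differentiate. Its region at chr4:2262085-2262963 was compact at 878 bp, with a mean signal of 3086, or 3514 per kb. That was the 99.4th percentile of genes and the highest value of any gene on chromosome 4. MXD3, the family member known from S phase, had an exonic region of 285 bp with 739 per kb, and a broader one of 1629 bp over its start sites with 618 per kb. Its place, the 53.0th percentile of genes, came from the narrow exonic region. With start sites widened by 0.5 kb MXD3 stood at percentile 43.7. Per kb, MXD4 was 4.76 times MXD3, and by undivided signal 3.07 times.

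MXI1 had 3 promoter regions. The one over the upstream start site had 378 per kb, an intronic one 968 bp downstream of a start site had 562, and a broad one of 2029 bp over the downstream start site had 398. The last gathered the most reads, with a mean signal of 807. A noncoding gene starts near the region over the upstream start site, so its promoter and that of MXI1 cannot be told apart there. The 3 regions lay between percentiles 39.4 and 54.3 of all promoter regions, and MXI1 stood at the 40.0th percentile of genes. MXD4 was 6.25 times MXI1 per kb and 3.82 times by undivided signal.

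MNT, the broadly expressed repressor that dimerizes with both MAX and MLX, had 2 promoter regions. The one over the start sites, chr17:2400811-2402147, had 1642 per kb, and the other, 1.21 kb downstream in an intron at chr17:2399479-2400223, had 2254 per kb. They stood at the 93.0th and the 97.5th percentile of all promoter regions. Per kb, MNT was 5.57 times MYC and 2.42 times MAX, and by undivided signal 8.55 and 1.46 times.

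MLXIPL had 1 promoter region of 898 bp at chr7:73623888-73624786. It reached 790 per kb, at the 56.6th percentile of genes, and overlapped the first coding exon. MLXIPL was 1.45 times MLX per kb, but 0.98 times by undivided signal, so their order depended on the scale.

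Outside promoters, strong regions were found at few of the network genes. The 37 distal regions ranged from 60.4 to 3101 per kb with a median of 215, against 168 over all distal regions, and 21 of the 37 were above that median. The upper tail belonged to 3 genes. All 10 regions above the 90th percentile of distal regions were those of MYCN (4), MNT (4) and MLXIPL (2), and 6 of the 10 were within 10 kb of the start site. The share of all distal regions above that percentile that lie so close was not counted. MXD4 and MLX had no distal region, as did 32.9% of coding genes. The stretch of genome closest to their start sites was short, at 18.8 kb for MXD4 and 3.76 kb for MLX, against a median of 52.5 kb for a coding gene.

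**Figure D2:**
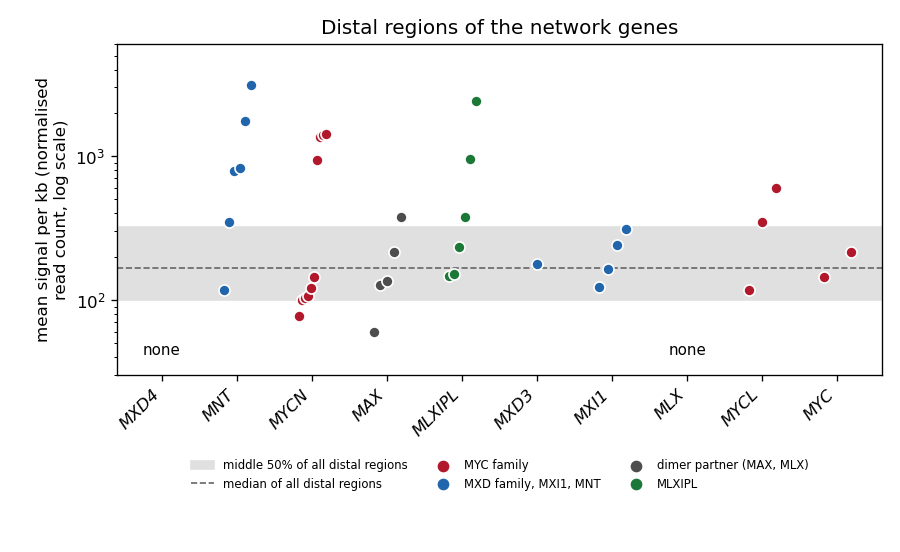
Mean signal per kb (log scale) of each of the 37 distal regions, by gene in the order of promoter signal, with the median (dashed) and the middle 50% (grey) of all distal regions. MNT, MYCN and MLXIPL each have regions at 935 per kb or more, while the other genes stay at or below 605 per kb and MXD4 and MLX have none.

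MYCN had 10 distal regions, a number that 6.08% of coding genes reached, in a stretch of 196 kb. They split into strong and weak ones with none between 144 and 935 per kb. The 4 strong ones were at 50.4 kb upstream (935 per kb), 3.02 kb downstream over an exon of MYCN (1406 per kb), 4.04 kb downstream in its intron (1417 per kb) and 52.9 kb downstream (1365 per kb). The first and the last of these were intergenic and held the distal E-boxes printed above. MYCNOS starts near the region over the exon, so a distal MYCN region and a MYCNOS promoter cannot be told apart there. Each of the 4 was above the 95th percentile of distal regions. The other 6 had 77.8 to 144 per kb, below the median of all distal regions.

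MYC, with a stretch of the same length, had 2 distal regions. One, chr8:127793809-127794742, lay 56.5 kb downstream beside the start of PVT1, a long noncoding gene, with 145 per kb. The other, chr8:127799771-127800903, lay 62.6 kb downstream in a PVT1 intron, with 215 per kb. Per 100 kb, MYC had 1.02 distal regions and MYCN 5.10, against a median of 2.83 for coding genes whose nearest stretch exceeded 10 kb. MYCL had 3 regions in 31.6 kb. The strongest, chr1:39896784-39897218, had 605 per kb and lay over an untranslated exon of the gene, where the antisense gene MYCL-AS1 starts nearby. The others were 17.5 and 19.9 kb upstream, with 351 and 118 per kb.

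MNT had 6 distal regions, of which 3 were in its own introns. The strongest distal region of the network, chr17:2396727-2397186, was 459 bp wide, lay 4.10 kb downstream of the start site and had 3101 per kb, at the 99.8th percentile. Its neighbours in the gene, at 5.07 and 7.78 kb, had 1749 and 824 per kb. Upstream, the other 3 lay within METTL16, an RNA methyltransferase gene, with 792 per kb at 35.0 kb, 351 per kb at 52.2 kb and 118 per kb at 15.2 kb. Regions within METTL16 were assigned to MNT by distance alone.

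In MLXIPL, all 6 distal regions were in its own introns. The region at chr7:73618363-73619327, 5.65 kb downstream of the start site, had 2407 per kb over 964 bp, at the 99.6th percentile. The next, 10.0 kb downstream, had 952 per kb at the 95.4th percentile. The remaining 4, between 11.4 and 22.8 kb, had 146 to 378 per kb. With 14.8 per 100 kb, MLXIPL had the densest distal regions of the 10 genes. Its strongest distal region was 3.05 times its strongest promoter region, a ratio above 3 that 10.8% of genes with both kinds of region had. The strongest distal region also exceeded the promoter in MNT (1.38 times), MYCL (1.17 times) and MYCN (1.01 times). That made 4 of the 8 network genes with both kinds, against 37.9% of such genes in the genome.

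**Figure D3:**
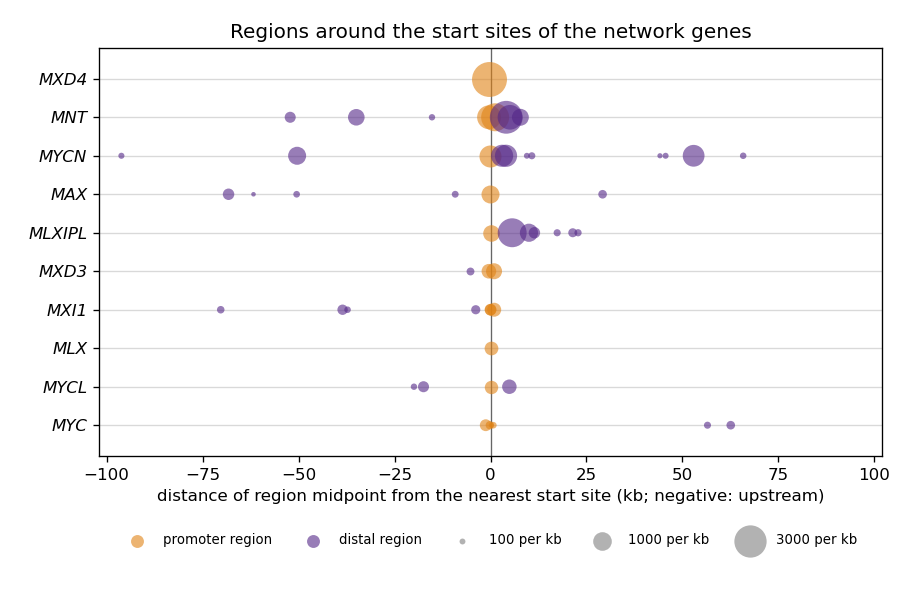
Midpoints of the 54 regions by distance in kb from the nearest start site of the gene (negative is upstream), with circle area in proportion to the mean signal per kb. Large distal circles sit within 10 kb downstream of the start in MNT, MYCN and MLXIPL, and about 50 kb to either side of MYCN.

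The distal regions of MAX, MXD3 and MXI1 were few and modest. MAX had 5, the highest 68.2 kb upstream with 379 per kb and the only one in its own intron with 214. MXD3 had 1, in an intron of LMAN2, a neighbouring gene, with 179 per kb. MXI1 had 4, all upstream, with 124 to 310 per kb. Over the bases that distal regions covered, the mean signal was 901 per kb for MNT, 813 for MLXIPL and 656 for MYCN. It was 301 for MYCL, 243 for MXI1, 223 for MAX, 183 for MYC and 179 for MXD3. The covered length was 5316 bp for MNT, 3876 bp for MLXIPL, 5903 bp for MYCN and 1792 bp for MYCL. It was 1567 bp for MXI1, 2168 bp for MAX, 2065 bp for MYC and 382 bp for MXD3.

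The words in the sequences above were counted on both strands in the central 300 bases of each region. The E-box was in 3 of the 17 promoter regions (17.6%, 95% Wilson interval 6.19 to 41.0%), against 6.61% of all promoter regions. In distal regions it was in 2 of 37 (5.41%, 1.495 to 17.7%), against 4.95%. An E2F word was in 2 of the 17 promoter regions (11.8%, 3.29 to 34.3%), against 2.42%, and in 0 of 37 distal regions (at most 9.41% by the same interval), against 0.491%. In MXD3 the E2F word overlapped a GC box, and in MYCN it did not. The intervals cover counting error only, and regions of one gene are not independent. Over whole regions the E-box was in 6 of 17 and 5 of 37, against 19.9% and 9.45%. An E2F word was in 3 of 17 and 0 of 37 whole regions, against 7.67% and 0.954%. A pair of E-boxes 5 bases apart, the layout of carbohydrate response elements that MLXIPL binds, was in 0 of 17 and 0 of 37 of the windows, which allows shares of up to 18.4% and 9.41% by the Wilson interval. It was in 1 of all 20094 promoter regions and 0 of all 88448 distal ones, so its absence says nothing particular about these genes.

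Other words were counted in the same windows. The GC box GGGCGG was in 13 of 17 promoter regions (76.5%, 52.7 to 90.4%) against 55.5%, and CCAAT in 5 of 17 against 24.2%. In distal regions CAGATG, an E-box variant of neuroendocrine bHLH factors, was in 13 of 37 (35.1%) against 31.1%. The AP-1 word TGANTCA was in 5 against 11.1%, and the forkhead word TGTTTAC in 5 against 9.43%. CCAAT was in 6 of 37 distal windows (16.2%, 7.65 to 31.1%) against 30.1%, and the GC box in 6 (16.2%, same interval) against 8.65%. Over whole distal regions, the AP-1 word was in 12 of 37 (32.4%, 19.6 to 48.5%) against 18.0%, and the forkhead word in 6 against 14.2%. Promoter regions had a median GC content of 65.3%, against 65.7% of all promoter regions. Distal regions of the network had 51.3%, against 44.7%, and 6 CpG dinucleotides per window, against 3. The 4 strong regions printed without a marked word differed widely in composition. The MXD4 promoter had 74.7% GC and 48 CpG, the most of the 17 promoter regions, the MNT region 67.3% and 14, the MLXIPL region 56.7% and 4, and the MYCN region 35.0% and 1. In the RefSeq promoters (GRCh38.p14, 250 bases before to 50 after the start), which held 12 entries for the 10 genes, the E-box was in those of MLX, MNT and MXD4, against 7.26% of all entries. Only the entry of MYCN held an E2F word, against 2.27%.

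Genes that act with the network were read from lists, by the percentile of the strongest promoter region. The other network genes were MXD1, an MXD repressor, at 3048 per kb (98.8th percentile), MGA, a MAX partner, at 1132 (74.9th) and MLXIP, a glucose sensor related to MLXIPL, at 650 (46.8th). Thus MXD1 and MXD4 were both above the 98th percentile, while MXD3 was near the median. Among 6 corepressor genes, 4 were above the median gene, with SIN3A, the scaffold that MXD proteins bind, at 3907 per kb and its paralog SIN3B at 145. Of 9 coactivator and partner genes of MYC, 3 were above the median gene, led by RUVBL1, a chromatin remodelling ATPase, at 1878 per kb. ZBTB17, or MIZ1, through which MYC represses, was lowest at 222 per kb.

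Regulators of MYC protein stability were above the median gene in 6 of 7, with GSK3B, the kinase that marks MYC for degradation, at 2993 per kb and AURKA, which stabilizes MYCN, at 2231. The ubiquitin ligase gene FBXW7 had 804 and USP28, its opposing deubiquitinase, 444. Of 10 textbook MYC targets, 9 had a promoter region and 5 were above the median gene, from NCL (2860 per kb) to ODC1 (408 per kb). CCND2 had none. Textbook MLXIPL targets were above it in 7 of 8, at a median percentile of 90.3. ARRDC4 and TXNIP, regulators of glucose uptake, had 3779 and 1239 per kb, PKLR, a glycolytic enzyme gene, 1680, and FASN, the fatty acid synthase gene, 652. The median over all genes with a promoter region was 695 per kb. These lists are small and were not tested against other genes.

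**Figure D4:**
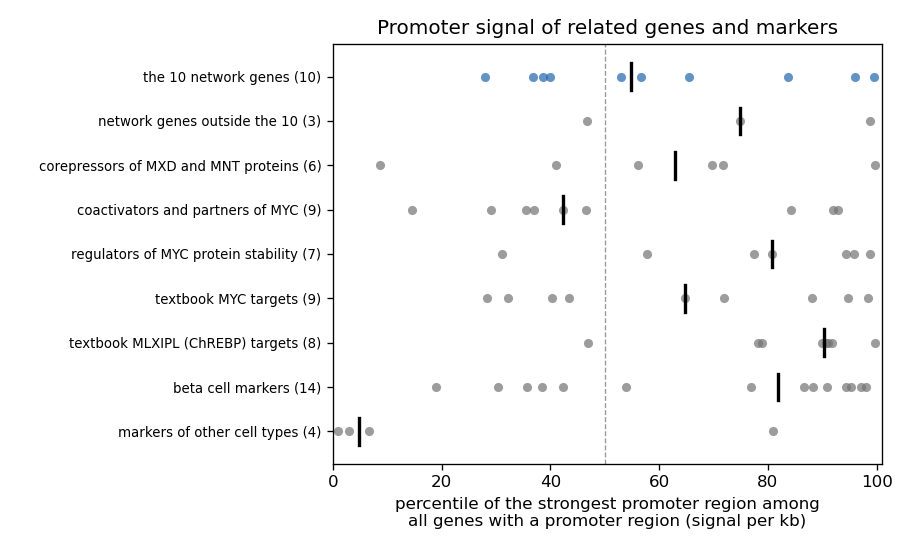
Percentile of the strongest promoter region among the 15493 genes with one, for the 10 network genes (blue), related genes and cell type markers (grey), with the median of each list as a bar and its number of genes in brackets. Textbook MLXIPL targets have a median of 90.3, the 10 network genes 54.8 and the 4 detected markers of other cell types 4.80.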

How the data were processed

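The authors trimmed paired-end ATAC-seq reads (Trim Galore, Cutadapt), aligned them to hg38 (Bowtie2), removed mitochondrial reads and duplicates (Picard), shifted reads by +4 and -5 bp for the Tn5 offset, called peaks with MACS2 at q under 0.01 and counted reads over the union of peaks (bedtools). Tool versions are not given in the sources used here. The signal that the authors deposited is the DESeq2 mean of read counts divided by size factors, over both groups together. The table also holds the authors' own comparison of senescent with non-senescent cells (fold change, its error, a test statistic and p-values), which was not used, so the planned edgeR comparison was not run. Depth per library cannot be read from it.

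Regions were assigned with start sites of protein-coding transcripts of GENCODE 44, divided by width, and ranked. Region coordinates are as the table gives them, with no statement of whether they count from 0. Sequences are counted from 1. The steps were tested on simulated regions (Python 3.11.15, pandas 2.3.3, numpy 2.4.6, scipy 1.17.1, pysam 0.24.0, matplotlib 3.10.9). A narrow region over a sharp summit gains from division by width, and reads of near-identical copies may be lost in alignment. The 10 genes, the lists and the words were chosen with earlier results of these data known. Every gene of the list of 10 was named with its values, and other genes were named as the highest or lowest of their lists or for a known role in the pathway. Alternatives for the start site window, the width, the distance limit, the gene set, a minimum signal of 50 and the motif window were tried.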

Additional observations from a re-analysis of the deposited data

How the results depend on the processing

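Of 30 summary values under alternatives, 23 stayed within their limits (a ratio of 1.5 for counts and ratios, the binomial interval for shares). The promoter ratio of MYCN over MYC, 3.46 as reported, was 7.04 with start sites widened by 1 or 0.5 kb, 8.45 without division by width and 6.95 as a mean over promoter regions. With start sites of all genes, noncoding ones included, 18 distal regions remained assigned in place of 37. With 150-base windows the E-box was in 5.88% of promoter regions and 0% of distal ones. Of 60 percentiles of single genes, 55 stayed within a ratio of 1.5. That of MYC fell from 28.0 to 12.3 and 11.9 in the narrower windows, 17.6 undivided and 14.4 as a mean, and that of MXI1 from 40.0 to 26.5 at 0.5 kb. Ranks within a chromosome were added after seeing the data. No paired analysis was possible because the values used here are means over all 6 libraries. For the same reason leaving out a library, other normalizations and count tests were not run. The depth of single libraries could not be weighed, since the table does not hold it.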

Other observations

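Regions nearest to a network start site but more than 100 kb away were found for 3 of the 10 genes. MYC, whose flanks hold few coding genes, had 33 of them, up to 916 kb away, with a median of 197 per kb. The highest, chr8:128554842-128555587, lay 817 kb downstream in an intron of LINC00824, a noncoding gene, with 1005 per kb, at the 95.8th percentile of distal regions. It was one of 3 above the 90th percentile, with 969 per kb at 803 kb and 835 per kb at 752 kb for the others. Each of these 3 exceeded the 405 per kb of the strongest MYC promoter region. So did a region 147 kb downstream with 522 per kb and one 916 kb downstream with 427 per kb.

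MYCN had 25 such regions, up to 353 kb away, with a median of 151 per kb, and 4 were above the 90th percentile. The highest, chr2:16093849-16095222, lay 154 kb downstream and had 3754 per kb, at the 99.9th percentile. MAX had 3, with at most 113 per kb. These regions were assigned by distance alone, and contact with the promoters was not measured.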
